A study of Homo sapiens with 6 samples.

Results

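The ephrin and semaphorin systems are the largest ligand and receptor families of axon guidance. Their genes were taken from the deposited table by symbol, as every Eph receptor (EPHA, EPHB), ephrin (EFNA, EFNB), semaphorin of classes 3 to 7, plexin and neuropilin (NRP1, NRP2) it lists. This gave 53 of 24489 rows, 22 in the ephrin system and 31 in the semaphorin system. RNA-seq had been run on LN229, an established human glioblastoma cell line, in 3 libraries of cells transduced with vector and 3 libraries of cells transduced to overexpress LACTB, which encodes a mitochondrial serine beta-lactamase-like protein. The comparison asks what raised LACTB changes in the RNA of glioma cells. No other treatment, time point or cell line is labelled, and the sources used here do not give the construct, its promoter, or whether the cells were clones or separate cultures. The p-values therefore reflect library-to-library spread alone, and that spread may be technical.

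Eph receptors are the largest family of receptor tyrosine kinases. Their ephrin ligands are held in the membrane, ephrin-A by a lipid anchor and ephrin-B by a transmembrane segment, so signalling needs contact between cells and can run into both of them. Semaphorins signal through plexins, which act on small GTPases inside the cell. The secreted class 3 semaphorins mostly bind through a neuropilin as co-receptor, while classes 4 to 7 are membrane-bound and mostly bind plexins directly. In glioma, both systems are known for their part in cell migration, invasion and vessel growth.

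The files give a normalized read count for each gene and library, and all levels below are in that unit. Column totals were 38049489 to 41384595 in vector and 34907394 to 35683869 in LACTB libraries, and the number of reads behind them is unknown. LACTB itself stood at 458, 515 and 393 in vector libraries 1 to 3 and at 4268, 4078 and 4203 in LACTB libraries 1 to 3, 9.19 times the vector mean (adjusted p = 2.9e-14). Of the glial and glioma markers, S100B, VIM, NES, CD44 and SOX2 were well above the minimum in all libraries, GFAP was low (72.3 to 126) and AQP4 stood at or below 8.38. These markers moved in both directions. S100B fell from a mean of 33778 to 14499 (adjusted p = 2.1e-07), and SLC1A3 and OLIG2 fell. SOX2 rose from 1131 to 2674 (adjusted p = 8.4e-08) and CD44 from 15011 to 19670 (adjusted p = 0.0047). GFAP and VIM rose from means of 74.5 to 122 and 25367 to 35300 (adjusted p = 0.017 and 0.0012). The endothelial, epithelial and lymphocyte markers CDH5, EPCAM and CD3E stayed at or below 16.8, but some other endothelial and epithelial markers were higher. The epithelial markers KRT14 and MUC1 rose from means of 120 to 225 and 113 to 232 (limma adjusted p = 0.0027 and 4.1e-04). The endothelial marker VWF had means of 145 and 116 (adjusted p = 0.34). The summed levels of other cell types' markers differed between the groups for 4 of 5 lists. They were 1090 to 1212 in vector and 1619 to 1715 in LACTB libraries for the 6 fibroblast and pericyte markers (LUM rose and COL1A2 fell), 1054 to 1144 and 1601 to 1717 for the 6 immune markers (nearly all CD68), and 170 to 294 and 400 to 510 for the 5 epithelial markers. They were 246 to 315 and 180 to 208 for the 6 endothelial markers. Of these KDR, whose mean over all libraries was under the minimum, fell from a mean of 69.9 to 4.86. PECAM1, CLDN5 and TEK had slightly higher means with LACTB, and CDH5 a lower one. The sums overlapped for the 5 neuron markers (1662 to 1716 and 1561 to 1758). The part of these markers in the results was not tested.

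The groups were compared with limma on log2(value + 1) for genes whose mean reached 1 CPM, here 37.7 normalized counts. Differences are log2 values on that scale, LACTB minus vector, which understate the change of low genes, and a gene is called higher or lower where its p-value adjusted over all tested genes is below 0.05. Of all 12939 tested genes, 51.9% were called, 27.4% higher and 24.6% lower, and the groups did not overlap for 59.7% (31.1% higher and 28.7% lower). Of the 53 genes 40 were tested, and 14 were called higher, 11 lower and 15 not called, with groups that did not overlap for 27 of the 40. The median difference of the 40 was 0.16, against 0.05 over all tested genes. With equal column totals 20 were higher and 8 lower, where 38.5% and 14.7% of all genes were, and with median centring 12 were higher and 14 lower, where 20.7% and 32.1% were. EPHA5, EPHB1 and EFNB3 reached the minimum only through the group in which they were high, so the counts describe the genes that passed and are no test of the families.

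Of 8 tested Eph receptors 6 were higher with LACTB, 0 lower and 2 not called, with a median difference of 0.61. Of 7 tested ephrins 0 were higher, 4 lower and 3 not called, with a median of -0.47. Over all tested genes 27.4% were higher and 24.6% lower, with a median of 0.05. The difference between receptors and ligands was not tested as such. Eph receptor transcripts are longer than ephrin transcripts (medians of 5434 and 3222 nt for the longest transcript of each gene). With the trend on transcript length and GC content removed from every library, the counts were 6 higher and 0 lower for receptors, and 1 higher and 3 lower for ephrins. Of all genes with both properties, 27.6% were then higher and 21.8% lower. The counts were 6 and 0 against 1 and 3 with equal column totals (38.5% and 14.7% of all genes). With median centring they were 4 and 0 against 0 and 5 (20.7% and 32.1%).

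**Figure D1:**
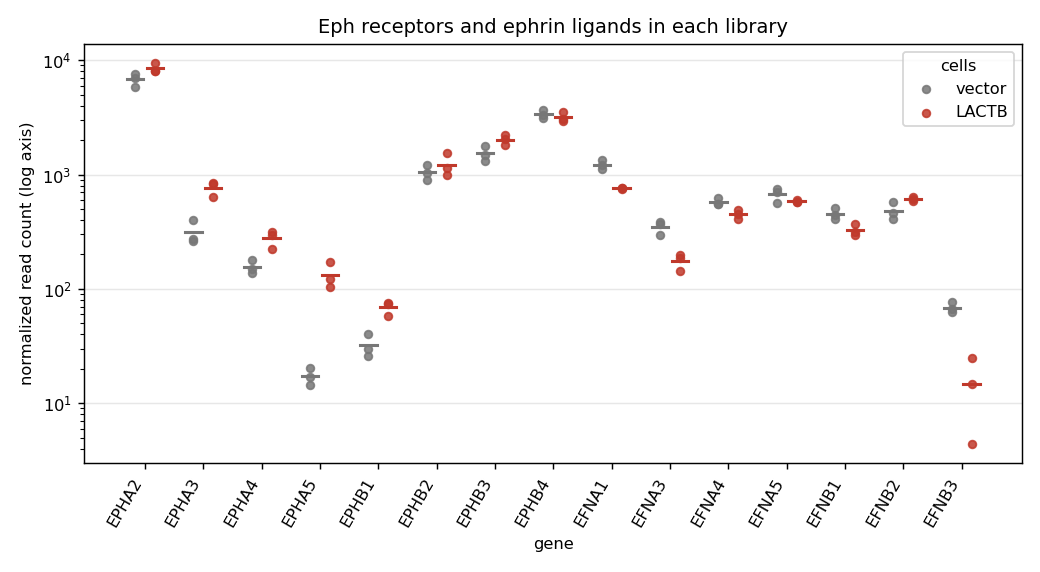
Normalized read count (log axis) of the 15 tested ephrin system genes in each library, with vector in grey, LACTB in red, points for libraries and bars for group means (n = 3 each). EPHA3, EPHA4, EPHA5 and EPHB1 lie higher in all 3 LACTB libraries, and EFNA1, EFNA3 and EFNB3 lie lower.

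EPHA3, a receptor for ephrin-A5 and other ephrins (chromosome 3, 89107524 to 89482134, GRCh38), stood at 397, 275 and 262 in vector libraries 1 to 3 and at 634, 846 and 826 in LACTB libraries 1 to 3. Every LACTB library was above every vector library, and the means were 311 ± 74.7 and 769 ± 117 (SD, n = 3 each), a difference of 1.32 (SE 0.18, limma adjusted p = 3.0e-06). EPHA5, a receptor mainly of the nervous system (chromosome 4, 65319563 to 65670495), went from 17.1, 14.6 and 20.1 to 104, 172 and 123. It had the largest difference of the tested members, 2.85 (SE 0.31, adjusted p = 1.9e-07), from a level below 1 CPM in vector cells. EPHA4, which binds both ephrin classes (chromosome 2, 221418027 to 221574202), rose from 178, 138 and 149 to 223, 311 and 295, a difference of 0.82 (SE 0.20, adjusted p = 0.0017). EPHB1 (chromosome 3, 134597801 to 135260467) rose from 25.7, 30.1 and 40.2 to 75.7, 57.5 and 74.1, a difference of 1.10 (SE 0.31, adjusted p = 0.0054). The groups did not overlap for any of these 4 receptors, as for 59.7% of all tested genes. None of the 4 lost its call under any alternative that gave it a value. With length and GC removed the differences were 0.89 for EPHA3, 2.26 for EPHA5, 0.50 for EPHA4 (adjusted p = 0.038) and 1.18 for EPHB1. EPHA5 and EPHB1 reached the minimum only through their LACTB libraries, so their calls are no test of the family.

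The differences of the 4 most abundant Eph receptors lay between -0.09 and 0.40. Per kilobase of the longest transcript, EPHA2, a receptor of ephrin-A1 that is well known in glioblastoma, had the highest mean of the family with 1711 normalized counts in vector and 2153 in LACTB cells, ahead of EPHB4 with 664 and 623. EPHA2 rose from a mean of 6784 ± 918 to 8535 ± 789, a difference of 0.34 (SE 0.12, adjusted p = 0.023). Its call was lost with median centring (0.20, adjusted p = 0.21), with limma without trend and robust settings (adjusted p = 0.080), without vector library 1 (0.054) and without LACTB library 1 (0.14). EPHB3 rose from 1534 ± 234 to 2023 ± 213, by 0.40 (adjusted p = 0.012), and lost its call with median centring (adjusted p = 0.094), without trend and robust settings (0.053) and without LACTB library 1 (0.079). EPHB4, a receptor of ephrin-B2 in vessels, had means of 3359 ± 287 and 3153 ± 299, and EPHB2 of 1049 ± 157 and 1222 ± 280. Neither passed (adjusted p = 0.52 and 0.27), with 95% intervals of the difference from -0.33 to 0.15 for EPHB4 and from -0.11 to 0.52 for EPHB2.

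Among the ligands, the ephrin-A genes EFNA4, EFNA3 and EFNA1 lie next to each other on chromosome 1, with gaps of 9.32 and 39.9 kb, and all 3 had lower means with LACTB. EFNA1, the main partner of EPHA2 (155127460 to 155134857), fell from 1329, 1216 and 1125 in vector libraries to 745, 756 and 766 in LACTB libraries. The LACTB libraries were nearly equal and all below the vector libraries, a difference of -0.69 (SE 0.13, adjusted p = 0.00013). EFNA3 (155078872 to 155087538) fell from 298, 386 and 369 to 198, 186 and 142, a difference of -1.002 (SE 0.19, adjusted p = 0.00019). EFNA4 (155063731 to 155069553) had means of 573 ± 43.7 and 450 ± 44.8 and did not pass (-0.35, adjusted p = 0.059), though it passed as lower with median centring (0.010), quantile normalization (0.0061) and without vector library 1 (0.035). A same-strand gene that joins EFNA4 and EFNA3 covers 44.7% of the exonic bases of EFNA3 and 15.0% of those of EFNA4, so reads of these genes are uncertain. The other 48 of the nearest 50 tested genes had a median difference of -0.31, and of 0.01 with the length and GC trend removed. With that trend removed EFNA1 was at -0.27 (adjusted p = 0.063), EFNA3 at -0.52 (0.026) and EFNA4 at 0.12 (0.40).

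Of the ephrin-B genes, EFNB3, a ligand of midline and brain tissue (chromosome 17, 7705202 to 7711378), fell from 66.1, 62.4 and 76.5 to 14.7, 24.7 and 4.43. All 3 LACTB libraries were below 1 CPM, and the difference was -2.41 (SE 0.45, adjusted p = 0.00014). EFNB1, an X-linked ligand of EphB receptors, fell from 453 ± 54.4 to 327 ± 38.8, by 0.47 on the log2 scale (adjusted p = 0.023), a call lost with equal column totals (adjusted p = 0.20), with length and GC removed (0.39), without vector library 2 (0.090) and without LACTB libraries 1 (0.077) or 3 (0.11). EFNB2, the vessel ligand of EPHB4, had means of 480 ± 82.9 and 611 ± 20.4 and did not pass (0.36, adjusted p = 0.057). It was the only tested ephrin with a higher mean in LACTB cells, and it passed with equal column totals (0.55, adjusted p = 0.013), with length and GC removed (0.35, 0.030), with the replicate block (0.36, 0.049) and without vector library 2 (0.49, 0.016). Exons of an antisense gene cover 26.2% of the exonic bases of EFNB2, and the strand setting is not given. EFNA5, a ligand of EPHA3 and EPHA5, had means of 670 ± 96.7 and 583 ± 10.5 (-0.19, adjusted p = 0.29). It passed as lower after the length and GC trend was taken out (-0.51, adjusted p = 0.0043), with quantile normalization (-0.37, 0.033) and without vector library 1 (-0.31, 0.042).

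In the semaphorin system both neuropilins, SEMA3A, SEMA3C, SEMA3E, SEMA4D, SEMA5A and PLXND1 rose, and SEMA3G, SEMA4B, SEMA4C, SEMA6B, SEMA7A, PLXNA1 and PLXNB1 fell. Of 15 tested semaphorins 5 were higher, 5 lower and 5 not called (median 0.09), beside 27.4% higher and 24.6% lower over all genes. Of 8 tested plexins 1 was higher, 2 lower and 5 not called (median -0.11). The plexin count turned on the scaling, with 4 higher and 1 lower with equal column totals (median 0.08), 1 and 4 with median centring, 3 and 4 with quantile normalization, and 3 and 4 with length and GC removed. For semaphorins the same settings gave 7 and 4, 5 and 5, 7 and 5, and 6 and 4. The split of all tested genes moved with the scaling too, so the shift is not particular to plexins. Median centring called 20.7% of them higher and 32.1% lower, whereas equal totals called 38.5% higher and 14.7% lower. Quantile normalization called 3214 of 12939 higher and 3296 lower. Of the genes with both properties, 27.6% were higher and 21.8% lower once length and GC were removed.

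**Figure D2:**
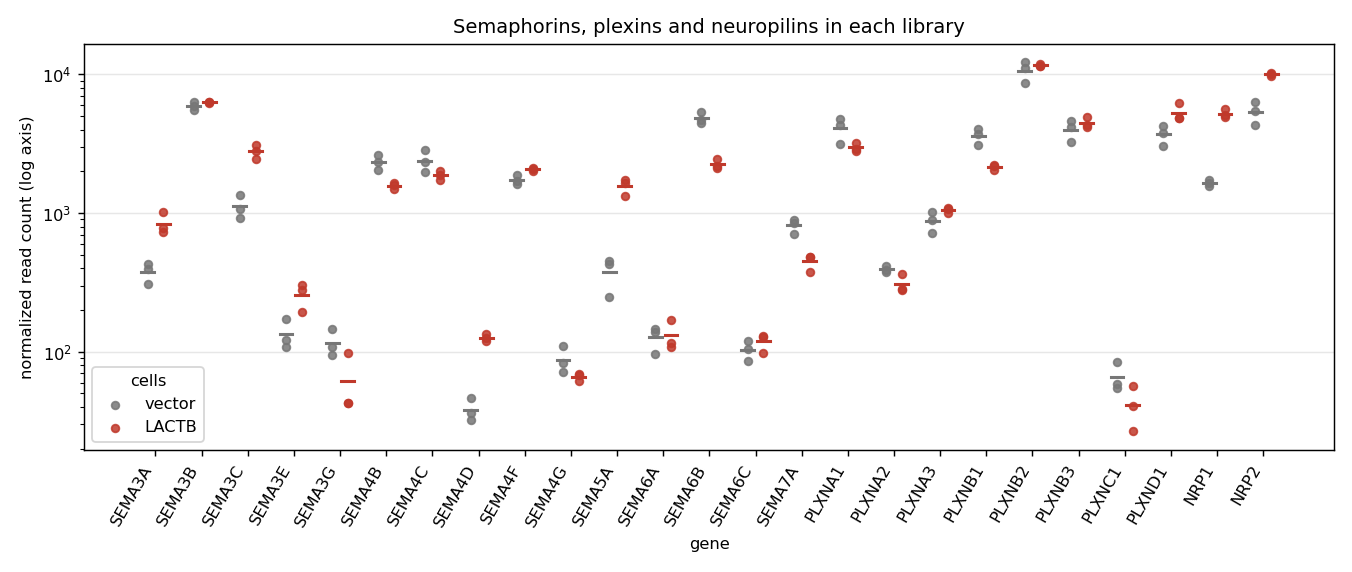
Normalized read count (log axis) of the 25 tested semaphorin system genes in each library, with vector in grey, LACTB in red, points for libraries and bars for group means (n = 3 each). NRP1, NRP2, SEMA3C and SEMA5A lie higher in all 3 LACTB libraries, and SEMA6B and PLXNB1 lie lower.

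NRP1, a co-receptor of SEMA3A and of the vascular growth factor VEGF (chromosome 10, 33177492 to 33336262), stood at 1573, 1727 and 1640 in vector libraries and at 5643, 5106 and 4906 in LACTB libraries. The groups were far apart and the mean rose 3.17-fold, from 1646 ± 77.0 to 5218 ± 381, a difference of 1.66 (SE 0.11, adjusted p = 1.0e-10). NRP2, which binds SEMA3C, SEMA3F and VEGF-C (chromosome 2, 205681990 to 205798133), rose from 4317, 6297 and 5409 to 9773, 10196 and 10007. The spread between vector libraries was wider than between LACTB libraries, the groups did not overlap, and the difference was 0.92 (SE 0.12, adjusted p = 3.3e-06). Neither gene lost its call under any alternative, and the differences were 1.36 and 0.80 with length and GC removed. The other tested genes around NRP1 and NRP2, 50 for each, had medians of 0.32 and 0.41, and of 0.04 and 0.13 with that trend removed.

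Of the class 3 semaphorins, SEMA3C, SEMA3E and SEMA3A lie within one stretch of chromosome 7, and all 3 rose. SEMA3C, a ligand of neuropilins with PLXND1 (80742538 to 80922359), rose from 1359, 1072 and 918 to 2783, 3122 and 2449, a difference of 1.33 (SE 0.14, adjusted p = 9.5e-08). SEMA3A, the classical growth cone repellent (83955777 to 84492724), rose from 428, 397 and 308 to 778, 1015 and 726, a difference of 1.15 (SE 0.17, adjusted p = 7.6e-06). SEMA3E, which can bind PLXND1 without a neuropilin (83363238 to 83649113), rose from 171, 122 and 108 to 193, 277 and 301, a difference of 0.94 (SE 0.23, adjusted p = 0.0015). In each case the lowest LACTB library was above the highest vector library, by a small margin for SEMA3E, whose call was lost once the length and GC trend was taken out (0.40, adjusted p = 0.13). With that trend taken out SEMA3C was at 0.93 and SEMA3A at 0.57, and both kept their calls (limma adjusted p = 1.5e-05 and 0.0021). The nearest tested genes, 48 around each, had median differences of 0.48 to 0.51, and of 0.37 with length and GC removed. SEMA3D, in the same stretch, stood below the 1 CPM minimum at 17.3 to 70.3 over the 6 libraries, and its groups overlapped.

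Of the tested class 3 genes of chromosome 3, SEMA3G fell and SEMA3B did not pass. SEMA3B, described as a tumour suppressor in lung, was the most abundant semaphorin per kilobase, with means of 1809 in vector and 1919 in LACTB cells. It stood at 5572, 5916 and 6331 in vector libraries and 6332, 6364 and 6200 in LACTB libraries, so the groups overlapped, and it did not pass (0.09, 95% interval -0.14 to 0.31, adjusted p = 0.52). It passed as higher after the length and GC trend was taken out (0.48, adjusted p = 0.00014), with quantile normalization (0.25, 0.031) and with equal column totals (0.28, 0.027). SEMA3F, its neighbour at a gap of 78.5 kb and a ligand of NRP2, stood at 71.2, 53.4 and 46.9 in vector and at 5.22, 5.19 and 4.26 in LACTB libraries. Its mean over all libraries, 31.04, was under the minimum, and in the fit with no filter its difference was -3.29 (SE 0.51, adjusted p = 3.7e-09). SEMA3G (52433053 to 52445085) fell from 94.0, 146 and 109 to 42.9, 42.6 and 98.0, with LACTB library 3 inside the vector range, a difference of -1.005 (SE 0.31, adjusted p = 0.0094). Leaving out vector library 2 ended its call (-0.83, adjusted p = 0.076).

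The upstream sequences of SEMA3C and SEMA3E and of EFNA3 and EFNA4 are shown because each pair lies in one region, with gaps of 2441 and 9.32 kb. SEMA3C and SEMA3E both rose, while EFNA3 fell and its neighbour EFNA4 did not pass. They are from RefSeq on GRCh38.p14, where 47 of the 53 genes matched, cover up to 250 bases before the annotated start, end before the gene's first base in GENCODE, and are written 5′ to 3′ on the gene's strand. SEMA3A is named only. SEMA3C and SEMA3E have more than 1 listed start, of which the most upstream is shown, and which start these cells use was not measured. Positions count back from the RefSeq start, which for EFNA4 lies 9 bases inside the GENCODE gene. Capitals mark a GC box (GGGCGG on either strand) or an E-box (CACGTG). The windows are SEMA3C chr7:80922390-80922639 (minus strand), SEMA3E chr7:83649140-83649389 (minus), EFNA3 chr1:155078587-155078836 (plus) and EFNA4 chr1:155063490-155063730 (plus).
SEMA3C: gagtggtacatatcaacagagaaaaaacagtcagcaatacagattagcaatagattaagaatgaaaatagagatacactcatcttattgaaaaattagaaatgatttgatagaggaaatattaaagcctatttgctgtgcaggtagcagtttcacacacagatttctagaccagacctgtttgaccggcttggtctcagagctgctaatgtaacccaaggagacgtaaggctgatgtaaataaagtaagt
SEMA3E: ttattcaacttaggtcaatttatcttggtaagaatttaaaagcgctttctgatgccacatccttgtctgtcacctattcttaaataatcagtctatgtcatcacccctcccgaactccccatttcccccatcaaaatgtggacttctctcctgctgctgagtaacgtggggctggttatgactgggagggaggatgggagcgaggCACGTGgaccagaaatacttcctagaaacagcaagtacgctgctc
EFNA3: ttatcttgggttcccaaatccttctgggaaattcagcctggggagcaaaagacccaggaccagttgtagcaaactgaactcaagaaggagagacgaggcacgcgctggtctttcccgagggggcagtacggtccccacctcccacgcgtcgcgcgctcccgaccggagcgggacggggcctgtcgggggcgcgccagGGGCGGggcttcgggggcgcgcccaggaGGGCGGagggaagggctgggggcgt
EFNA4: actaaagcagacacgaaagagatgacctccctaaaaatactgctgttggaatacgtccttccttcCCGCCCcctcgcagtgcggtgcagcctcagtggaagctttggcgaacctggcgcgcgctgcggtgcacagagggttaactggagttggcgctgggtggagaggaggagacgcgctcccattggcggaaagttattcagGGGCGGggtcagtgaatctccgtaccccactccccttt
The SEMA3C window holds neither motif and had a GC content of 36.4%, the lowest of the 47. The SEMA3E window (46.4% GC) holds 1 E-box, whose first letter is 45 bases before the start. The EFNA3 window (67.6% GC) holds 2 GC boxes, 53 and 25 bases before the start, and the EFNA4 window (58.5% GC) holds 2, at 185 and 47 bases before its RefSeq start. Among windows of 250 bases, a GC box was in 37 of the 47 genes (78.7%) and in 67.8% of 9984 tested genes, and in 9 of 12 genes called higher and 8 of 9 called lower. The E-box was in 4 of the 47 (8.51%) and in 8.96% of tested genes. TATAAA and TGANTCA (the AP-1 motif), searched on both strands, were each in 1 of the 47, against 4.95% and 3.77% of tested genes. The motifs do not overlap one another in the windows shown, a match is a description, and no match says only that these letters are not in the window.

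Of the membrane semaphorins, SEMA5A, an adhesion-like class 5 ligand of PLXNB3 (chromosome 5, 9035026 to 9546075), had the largest rise of the system. It went from 250, 454 and 427 in vector to 1332, 1740 and 1658 in LACTB libraries, and library 1 was the lowest of each group. The mean rose 4.18-fold, and the difference was 2.10 (SE 0.18, adjusted p = 8.3e-09). It was 1.60 with length and GC removed, where the 50 nearest tested genes had a median of 0.50. SEMA4D, the ligand of PLXNB1 that is also known from lymphocytes (chromosome 9, 89360787 to 89498130), rose from 36.3, 46.4 and 32.0 to 125, 134 and 119, a difference of 1.71 (SE 0.27, adjusted p = 2.2e-05). The lymphocyte marker CD3E stood at or below 4.33 in every library, and PTPRC at or below 14.6. CD68, of the same immune list, rose from a mean of 1076 to 1614. The part of these markers in the SEMA4D values was not tested.

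SEMA6B, a ligand of A-type plexins (chromosome 19, 4542593 to 4559808), had the largest fall among the tested genes of the system. It stood at 4472, 4680 and 5356 in vector and at 2456, 2176 and 2131 in LACTB libraries, a difference of -1.10 (SE 0.11, adjusted p = 9.6e-08). SEMA7A, which is lipid-anchored and binds PLXNC1 and integrin beta 1 (chromosome 15, 74409289 to 74433958), fell from 703, 848 and 896 to 480, 377 and 486, a difference of -0.87 (SE 0.16, adjusted p = 8.8e-05). Both groups of values were well separated for these genes, and both kept their calls under every alternative run. SEMA4B fell from 2340 ± 275 to 1580 ± 82.8 (-0.56, adjusted p = 0.00053). SEMA4C, a ligand of PLXNB2, fell from 2384 ± 449 to 1874 ± 142 with overlapping groups (-0.33, adjusted p = 0.037). That call was lost under 7 of 16 alternatives, among them equal column totals (-0.14, adjusted p = 0.39), length and GC removed (-0.07, 0.52), no trend and robust settings (0.11), and without vector library 2 (0.073), vector library 3 (-0.19, 0.20), LACTB library 2 (0.072) or LACTB library 3 (0.16).

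The remaining tested semaphorins did not pass. SEMA4F had means of 1727 ± 128 and 2068 ± 39.9 (0.26, adjusted p = 0.058), and passed with equal column totals (0.45, adjusted p = 0.0027), quantile normalization (0.27, 0.044), length and GC removed (0.26, 0.024), and without vector libraries 1 (0.038) or 3 (0.025). SEMA4G, whose exonic bases overlap other genes' exons by 27.4%, had means of 87.7 ± 19.4 and 66.2 ± 3.65 (adjusted p = 0.24). SEMA6A had means of 127 ± 26.8 and 131 ± 33.8 (adjusted p = 0.90), and SEMA6C of 103 ± 17.2 and 119 ± 18.3 (adjusted p = 0.51).

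Among the plexins, PLXNB1, the receptor of SEMA4D (chromosome 3, 48403854 to 48430051), fell from 3103, 3698 and 4021 to 2056, 2225 and 2191. The highest LACTB library was below the lowest vector library, and the difference was -0.73 (SE 0.12, adjusted p = 2.7e-05), so the ligand SEMA4D was higher and its receptor lower. PLXND1, the receptor of SEMA3E, rose from 3696 ± 608 to 5303 ± 774 (0.52, adjusted p = 0.0020). PLXNA1, which signals with NRP1 for SEMA3A, fell from 4091 ± 852 to 2974 ± 218 with overlapping groups (-0.44, adjusted p = 0.0090). Its call was lost with equal column totals (-0.25, adjusted p = 0.15), without trend and robust settings (0.061), and without vector library 2 (0.053) or 3 (-0.31, 0.086).

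PLXNB2 and PLXNB3 did not pass. PLXNB2, the highest plexin per kilobase (1669 in vector and 1824 in LACTB cells), stood at 8654, 11102 and 12201 in vector and at 11974, 11474 and 11471 in LACTB libraries. Vector library 1 was the lowest, the groups overlapped, and the difference was 0.14 (95% interval -0.11 to 0.40, adjusted p = 0.34). PLXNB3, the receptor of SEMA5A, stood at 3243, 4160 and 4588 in vector and at 4179, 4906 and 4334 in LACTB libraries, again with vector library 1 lowest and overlapping groups (0.17, 95% interval -0.09 to 0.44, adjusted p = 0.26). A same-strand neighbour shares 20.4% of its exonic bases. Both passed as higher with quantile normalization (0.32 and 0.31, adjusted p = 0.024 and 0.038), equal column totals (0.33 and 0.37, adjusted p = 0.031 and 0.029), and length and GC removed (0.26 and 0.33, adjusted p = 0.0045 and 0.0037). PLXNA2 had means of 393 ± 21.3 and 308 ± 45.5 (-0.36, adjusted p = 0.081) and passed as lower after length and GC removal (-0.57, adjusted p = 0.0069), with median centring (0.016) and with quantile normalization (0.0096). PLXNA3 had means of 877 ± 154 and 1053 ± 40.0 (0.28, adjusted p = 0.10) and passed as higher with equal column totals (0.47, adjusted p = 0.016) and without vector library 3 (0.40, 0.032). PLXNC1 had means of 66.1 ± 16.5 and 41.4 ± 15.0 (-0.70, adjusted p = 0.077) and passed as lower with median centring (0.033), quantile normalization (0.046), length and GC removed (0.029) and without LACTB library 2 (0.032).

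**Figure D3:**
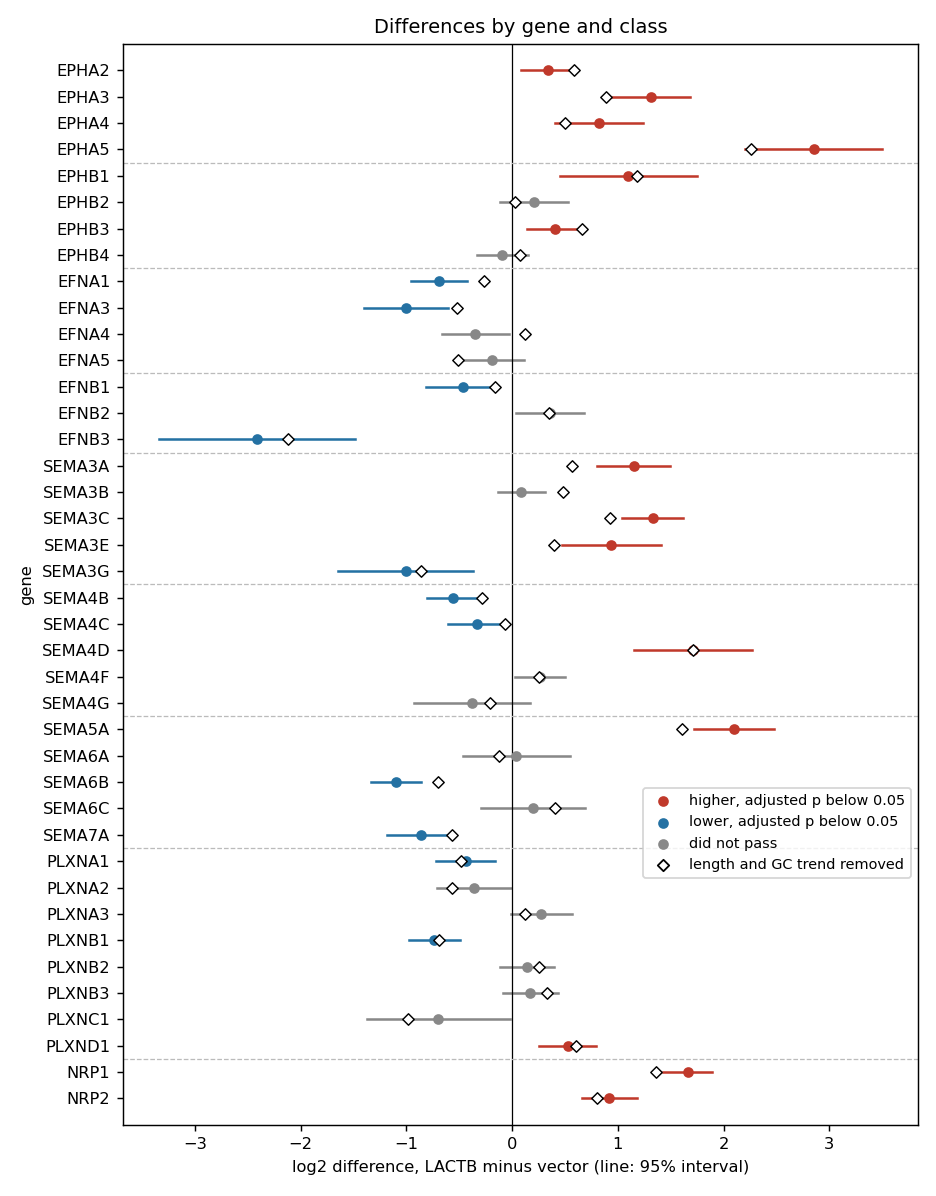
Log2 difference, LACTB minus vector, of the 40 tested genes by class, with filled points and 95% intervals as deposited (red higher, blue lower, grey not called) and open diamonds with the length and GC trend removed. Eph receptors lie mostly to the right and ephrins to the left of 0, and NRP1 and NRP2 lie at 1.66 and 0.92.

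The called genes differed in base composition. The 14 genes called higher had a median transcript GC content of 45.2% and the 11 called lower one of 60.5%, and no gene called lower had a GC content under 58.4%. Genes called higher ranged from 36.7% to 63.5%, and the 15 not called had a median of 57.4%. Across the 40 genes, which share the 6 libraries and are not independent replicates, Spearman's correlation between the difference and GC content was -0.56, and 0.44 with transcript length. Over all tested genes with both properties the values were -0.45 and 0.41. With the trend removed, the correlation with GC content across the 40 was -0.37, and 18 genes were called higher and 11 lower, against 27.6% and 21.8% of all genes with both properties.

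**Figure D4:**
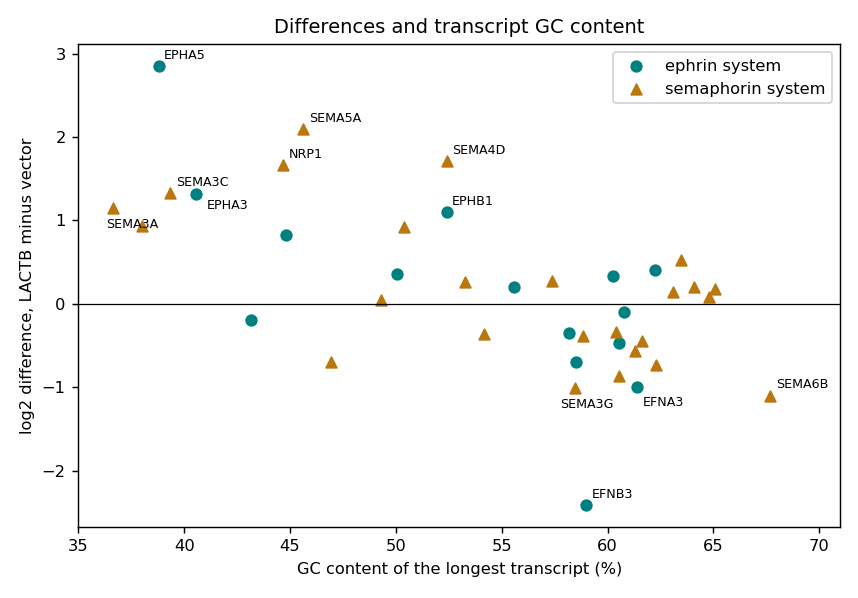
Log2 difference, LACTB minus vector, of the 40 tested genes against the GC content (%) of the longest transcript, with circles for the ephrin and triangles for the semaphorin system. The largest rises, EPHA5 (2.85) and SEMA5A (2.10), are below 50% GC, and SEMA6B (-1.10) has the highest GC content.

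The 13 genes under the 1 CPM minimum had means over all libraries of 0.362 to 34.8. EPHA6, EPHA7, EPHA8, EFNA2, SEMA5B and PLXNA4 stood at or below 6.30 in every library. EPHA1 stood at 4.30 to 16.7 and EPHA10 at 0 to 21.0. EPHB6, an Eph receptor without kinase activity, stood at 2.14, 2.23 and 2.13 in vector and 6.91, 8.71 and 6.38 in LACTB libraries. SEMA4A had means of 20.9 ± 6.27 and 8.04 ± 1.34. SEMA6D stood at 12.6, 6.70 and 2.24 in vector and at 29.9, 19.8 and 12.9 in LACTB libraries. In the fit with no filter, besides SEMA3F, EPHA10 passed as lower (adjusted p = 0.012) and SEMA6D as higher (adjusted p = 0.036).

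Other genes of the guidance pathways were read from 4 lists. Of 71 tested genes in them 33 were higher, 13 lower and 25 not called, with a median of 0.25, beside 27.4% and 24.6% over all genes. The lists were chosen with earlier results of these data known, so these counts describe the lists and are no test of the pathways. Over all genes the shares were 27.6% and 21.8% with length and GC removed and 20.7% and 32.1% with median centring. Of 21 tested genes that act after Eph receptors and ephrins 9 rose and 5 fell. That count was 6 and 6 with length and GC removed and 8 and 7 with median centring. ADAM10, singled out after its values were seen, is the protease that sheds ephrins, and was called higher (0.41, adjusted p = 0.011) but lower with length and GC removed (-0.28, adjusted p = 0.033). RASA1, a GTPase activator for Ras that binds Eph receptors, rose from 141 ± 25.4 to 381 ± 46.5 and the phosphatase gene PTPN13 from 251 ± 21.2 to 594 ± 152. The exchange factor gene VAV2 fell from 4247 ± 391 to 2246 ± 48.2 and the kinase gene SRC from 6096 ± 658 to 3270 ± 171. Of 23 tested genes that act after plexins 11 rose and 5 fell, against 14 and 4 with length and GC removed and 10 and 7 with median centring. MICAL2, an actin oxidase, rose from 241 ± 42.7 to 592 ± 114 and the collapsin response mediator gene CRMP1 from 113 ± 12.02 to 251 ± 49.7, while its relative DPYSL4 fell from 2150 ± 205 to 986 ± 162 and RND2 from 375 ± 47.2 to 136 ± 5.49.

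Of 9 tested co-receptor genes of semaphorin signalling 4 rose and 1 fell (27.4% and 24.6% of all genes). The counts were 5 and 4 with length and GC removed (27.6% and 21.8%). FLT1, a VEGF receptor, rose from 305 ± 45.5 to 717 ± 77.5, and ERBB2, which associates with B-type plexins, from 3894 ± 553 to 8801 ± 429. PTK7, a receptor with an inactive kinase domain, fell from 4038 ± 294 to 1727 ± 157. KDR, the VEGF receptor that pairs with NRP1, was under the minimum and was singled out after its values were seen, at 72.4, 79.8 and 57.6 in vector and 1.57, 1.55 and 11.5 in LACTB libraries. Of 18 tested netrin, Slit and RGM pathway genes 9 rose and 2 fell, beside the same 27.4% and 24.6%. The counts were 7 and 3 both with length and GC removed and with median centring (20.7% and 32.1% of all genes). SLIT3, a ligand of Robo receptors, rose from 33.3 ± 20.6 to 239 ± 49.4 and the netrin receptor gene DCC from 25.8 ± 8.09 to 93.5 ± 7.46. Both had vector means under 1 CPM and reached the minimum only through their LACTB libraries, so their calls are no test of the pathway. MAG, a myelin protein that inhibits axon growth, fell from 3046 ± 248 to 696 ± 76.9 and NTN1, netrin 1, from 1524 ± 287 to 914 ± 41.5. Apart from ADAM10 (0.011), limma adjusted p for the genes named from the 4 lists that were called was at most 0.00019.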

How the data were processed

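RNA was measured in 3 vector and 3 LACTB libraries of LN229 cells, extracted with Trizol and chloroform, with NEB libraries, per the labels' protocols. HISAT2 and hg38 are named per the submitters' processing notes, while the counter, annotation, strand setting and kind of normalization are unstated there. The deposited values are a signal per gene, a normalized read count that is not whole, and low values did not fall on 1 step per library, so no count model was used. Values below 1e-10 were set to 0, and for 9 symbols on more than 1 row the higher row was kept.

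The 2 groups were compared over all 6 libraries with limma 3.58.1 (R 4.3.3), with its trend and robust options and no covariate, two-sided, for genes whose mean reached 1 CPM (37.7 normalized counts), on log2(value + 1), with Benjamini-Hochberg adjustment over all tested genes and a threshold of 0.05. Positions, transcript length and GC content are from GENCODE release 29 on GRCh38. In 1 alternative, a natural spline with 5 degrees of freedom on each of length and GC content was removed from every library. Neighbour medians leave out the families' own genes. Every tested member is named, those past the threshold by at least 1.5-fold and the 3 most abundant that missed it are given in every library, and of each other list the largest 2 rises and falls. Members and lists were chosen with earlier results of these data known. The fit was tested on simulated data. Figures used matplotlib 3.10.9.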

Additional observations from a re-analysis of the deposited data

How the results depend on the processing

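Alternatives were median centring, quantile normalization, equal column totals, no filter, a minimum of 5 CPM, pseudocounts of 0.1 and of 1 CPM, limma without trend and robust settings, the replicate block, length and GC removed, and leaving out each library. No tested member changed direction while called. Of the 40 tested members, 4 lost and 8 gained a call with length and GC removed, 0 and 8 with quantile normalization, 3 and 6 with equal column totals, 2 and 3 with median centring, and 4 and 0 without trend and robust settings. No filter and both pseudocounts changed 0 calls, and the 5 CPM minimum 0 of 31. With equal column totals, which put the median of all genes at 0.24, lower calls over the whole table fell to 1905 from 3177 and higher calls in the semaphorin system rose to 13 from 8, and the whole table split into 38.5% higher and 14.7% lower. Median centring gave 20.7% and 32.1%. Leaving out 1 library at a time, lower calls ranged from 2 to 5 in the ephrin system (4 with all libraries) and from 4 to 7 in the semaphorin system (7), with the lowest of each without vector library 2. Over the whole table, lower calls ranged from 2554 to 3438 (3177 with all libraries) and were 3179 without vector library 2. EFNB3 fell under the minimum and was not tested whenever a vector library was left out, so its call was not checked there. Same-numbered libraries deviated together with correlations of 0.02, 0.18 and 0.003, so the numbers were not taken as pairs. With the replicate block 6879 genes were called over the whole table against 6721, and EFNB2 was the only tested member whose call changed (adjusted p = 0.049). LACTB differed by 3.07 to 3.40 over all alternatives. The number of reads is unknown, so no counting error is given for low genes.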
